A study of Mus musculus with 6 samples.

Results

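Nuclear receptors are transcription factors that share a zinc-finger DNA-binding domain, and most also carry a pocket that binds a small lipophilic ligand such as a fatty acid, sterol, bile acid, retinoid, steroid or thyroid hormone. Many bind DNA in pairs, often with a retinoid X receptor as partner, at copies of a short half-site, and recruit corepressors or coactivators according to whether ligand is bound. In liver they are known for setting fat oxidation, bile acid and cholesterol handling, drug clearance and hepatocyte identity. The family described here is a list of 39 mouse genes in 13 classes, found by matching the RefSeq accession of each non-control probe to a gene symbol, out of 20659 genes named on the array. All 39 were on the array with 60 probes, 52 of which were kept, and 35 of the 39 could be tested among 14807 tested genes.

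The arrays held RNA from the livers of male ICR mice (outbred) after deproteinized extract of calf blood (DECB), a calf blood preparation with its protein removed, or normal saline. Both were given into the stomach once daily at 0.08 mL per 20 g for 35 days to 12 mice a group, 24 mice of 18 to 22 g in all. Hypoxia tolerance in a closed container was also timed in these mice, and the labels do not say whether liver was taken before or after it. There were 3 DECB arrays, named DECB 4, 5 and 6, and 3 saline arrays, named control 1, 2 and 3. The sample descriptions instead give 30 days for DECB and 1 day for controls, which conflicts with 35 days. If these descriptions hold, time and treatment cannot be told apart on these arrays. A difference in time between the groups was not tested. The labels do not say that each array is another mouse. Controls 2 and 3 correlated at 0.992 across genes, above the 0.901 to 0.968 of the other pairs, so whether they are separate samples is open to doubt and n = 3 for controls rests on the labels. A p-value here therefore covers the spread among these arrays only, and that spread may be technical.

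Brightness went with the slide, here meaning the arrays that share a scan time. Slide 1 held DECB 6 and control 1, slide 2 held DECB 4 and controls 2 and 3, and DECB 5 was alone on slide 3. Per array, the processed signal had a 75th percentile of 84.8 on DECB 6 and 78.8 on control 1, against one of 422 to 551 on the other 4 arrays, and between 14925 and 29517 of 39429 probes were well above background. Every level below is the log2 of a probe's processed signal minus that of the array's 75th percentile, and every difference is DECB minus control on that log2 scale. The 6 hepatocyte markers were well above background on all 6 arrays and summed to 1333 to 1620 times the 75th percentile on DECB arrays and 1548 to 1775 times on control arrays, which overlap. Summed cholangiocyte markers were 1.24 to 1.73 on DECB arrays against 0.667 to 1.08 on control arrays, with 1 of 5, Krt7, not well above background on any array. Summed erythroid markers were 11.5 to 28.7 on DECB arrays against 44.1 to 69.1 on control arrays. The macrophage, stellate, endothelial, lymphocyte, adipocyte and acinar sums overlapped between the groups, and Adipoq, Cfd, Lep and Pnlip were not well above background on any array. The part of these shifts in the results below was not tested. In whole liver, fewer cells of a type and less RNA per cell cannot be told apart.

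No receptor passed an adjusted p of 0.05 in either direction, where 0.466% of all tested genes did (0.209% higher and 0.257% lower with DECB; limma, Benjamini-Hochberg over all genes). The lowest adjusted p-values belonged to Ppara and Nr2c1, each lower with DECB on every array. At an unadjusted p under 0.05 there were 4 receptors, Ppara, Nr2c1, Nr0b2 and Nr2c2, all lower with DECB. They were 11.4% of the 35, against 5.79% of all genes in that direction, while no receptor was higher, against 4.22%. With normexp background correction, Nr2c2 differed by -0.37 and Nr0b2 by -0.59, and neither passed that threshold, whereas Nr1i3, lower, and Ppard, higher, did. Ppard, higher, also passed it with slide as a block, without the slide 1 arrays, without DECB 4, without control 1, and among genes well above background on all 6 arrays. Ppara and Nr2c1 passed it in every tested setting. The groups did not overlap for 5 receptors, or 14.3%, against 16.6% of all genes. The same 4 were lower on every DECB array (11.4%, against 9.40% of all genes) and Ppard was higher (2.86%, against 7.24%). The median difference over the 35 was -0.13, with 22 below 0 and 13 above, beside a median of -0.027 over all genes, 52.5% of which lay below 0. With slide as a block, Ppara and Nr2c1 passed, 5.71% of the receptors against 6.65% of all genes (2.73% higher and 3.92% lower). The error of that fit rests in part on the gap between controls 2 and 3, which may be 1 sample. Ppara and Nr2c1 also passed among genes well above background on all 6 arrays, where 0.489% of genes were called higher and 0.574% lower. None passed without the slide 1 arrays, where 0.216% and 0.311% were called. Of the receptors' 52 probes fitted singly none passed, against 0.0354% of all probes higher and 0.0551% lower. With slide as a block the 3 Ppara probes and 1 Nr2c1 probe passed, all lower, against 1.41% of all probes higher and 2.05% lower.

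**Figure D1:**
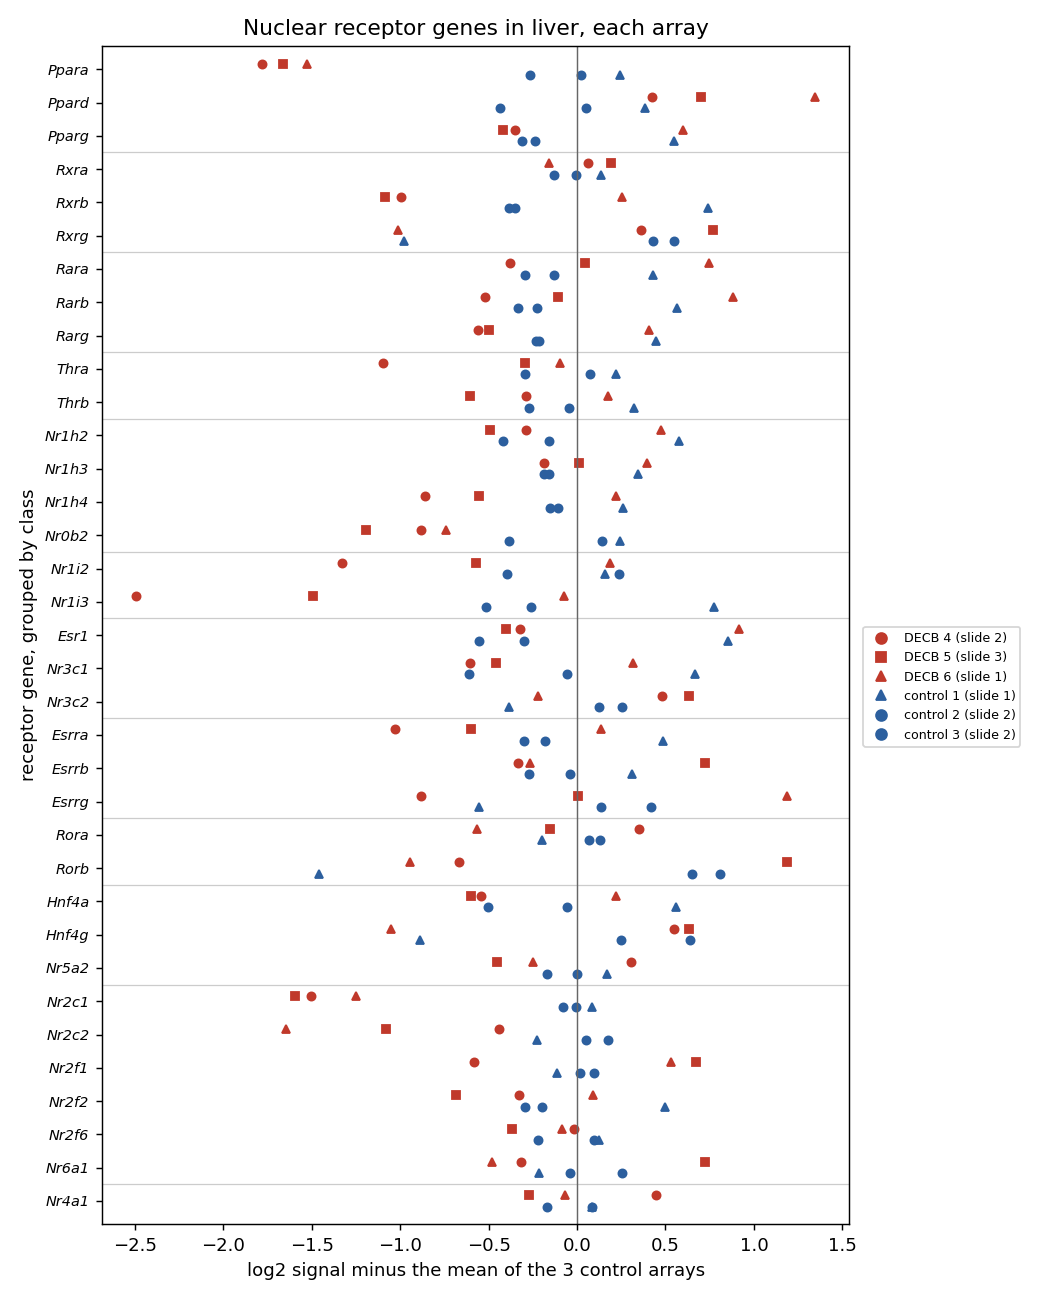
Log2 level of each tested receptor on each array minus its mean over the 3 control arrays (horizontal axis), 1 row a receptor, grouped by class, with DECB arrays in red, control arrays in blue and a symbol for each slide. The 3 DECB arrays lie below the 3 control arrays for Ppara, Nr2c1, Nr0b2 and Nr2c2, and above them for Ppard, while the other receptors overlap.

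The promoters of Ppara and Nr2c1, which had the smallest p of the family, are shown beside those of Nr0b2 and Nr1i3, liver receptors of bile acid and drug handling with at least 1 probe lower on every DECB array. Each line gives 250 bases before to 50 after the gene's start on GRCm38.p6, plus strand, from RefSeq. Capitals mark the nuclear receptor half-site AGGTCA, the E-box CACGTG, the GC box GGGCGG and the CCAAT box CCAAT, on either strand. The Ppara window is chr15:85735526-85735825, the Nr2c1 window chr10:94147681-94147980, the Nr0b2 window chr4:133553126-133553425 and the Nr1i3 window chr1:171213720-171214019.
Ppara: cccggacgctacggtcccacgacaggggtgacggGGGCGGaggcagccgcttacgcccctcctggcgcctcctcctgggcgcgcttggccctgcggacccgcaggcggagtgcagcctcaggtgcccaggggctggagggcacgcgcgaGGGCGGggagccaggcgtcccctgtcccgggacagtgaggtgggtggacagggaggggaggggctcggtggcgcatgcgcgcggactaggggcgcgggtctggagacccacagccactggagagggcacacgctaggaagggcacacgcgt
Nr2c1: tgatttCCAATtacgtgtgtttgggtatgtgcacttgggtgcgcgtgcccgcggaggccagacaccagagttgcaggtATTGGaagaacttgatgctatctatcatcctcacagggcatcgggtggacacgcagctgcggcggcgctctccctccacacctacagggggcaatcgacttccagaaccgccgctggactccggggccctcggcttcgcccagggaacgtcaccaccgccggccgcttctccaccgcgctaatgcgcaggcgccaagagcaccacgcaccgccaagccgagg
Nr0b2: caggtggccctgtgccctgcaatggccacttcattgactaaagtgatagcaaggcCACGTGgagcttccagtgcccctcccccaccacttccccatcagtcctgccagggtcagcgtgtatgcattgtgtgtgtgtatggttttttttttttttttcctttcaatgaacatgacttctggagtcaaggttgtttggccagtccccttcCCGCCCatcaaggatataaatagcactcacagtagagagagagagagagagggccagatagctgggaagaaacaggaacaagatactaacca
Nr1i3: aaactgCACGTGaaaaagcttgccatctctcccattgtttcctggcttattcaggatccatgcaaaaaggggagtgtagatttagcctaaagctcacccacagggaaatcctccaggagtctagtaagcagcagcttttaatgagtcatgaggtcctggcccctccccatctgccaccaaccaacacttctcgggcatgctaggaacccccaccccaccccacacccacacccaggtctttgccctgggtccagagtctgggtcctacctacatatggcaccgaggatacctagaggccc
The Ppara window held 2 GC boxes, the Nr2c1 window 2 CCAAT boxes, the Nr0b2 window 1 E-box and 1 GC box, and the Nr1i3 window 1 E-box. None of the 4 windows held the half-site, which says only that these letters are not there. Promoters of 36 of the 39 receptors matched, all but Thra, Nr3c1 and Hnf4g. The half-site was in 9 of these 36, or 25%, against 16.8% of 11765 tested genes and 18.1% of all 27025 genes in the table. The 9 were Pparg, Rxra, Rxrg, Rara, Rarg, Thrb, Nr1h4, Nr5a2 and Nr6a1, all of which overlapped between the groups by their brightest probe. The E-box was in 11.1% of receptor promoters and 10.6% of tested genes, the GC box in 61.1% and 59.3%, and the CCAAT box in 47.2% and 42.4%. No receptor window held 2 half-sites as a direct repeat spaced by 0 to 5 bases or as an inverted repeat spaced by 0 or 1. Each of these exact repeats was in at most 0.068% of tested genes, so their absence from 36 promoters says nothing about the receptors.

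Of the fatty acid receptors, Ppara was lower and Ppard higher on every DECB array, and Pparg overlapped. Ppara, which drives fat oxidation and ketone production in the fasting liver, had levels of 3.44, 3.56 and 3.70 on DECB arrays and 5.47, 4.96 and 5.25 on control arrays. Every DECB array lay below every control array, with no overlap. The means were 3.57 ± 0.13 with DECB and 5.23 ± 0.26 in controls (SD, n = 3 each), a difference of -1.66 (SE 0.28, 95% interval -2.31 to -1.0), or 3.15-fold lower, which did not pass in limma's test (adjusted p = 0.068). It ranked 111 by p among all genes. The value was -1.77 within slide 1 and -1.66 within slide 2, and it passed with slide as a block (adjusted p = 0.0217). All 3 Ppara probes were lower on every DECB array, by -1.66, -1.45 and -0.94.

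Ppard, a widely expressed fatty acid receptor, had levels of 0.58, 0.85 and 1.5 on DECB arrays and 0.54, 0.20 and -0.28 on control arrays. The groups did not overlap, though DECB 4 and control 1 nearly met. The difference of 0.82 (SE 0.37) did not pass (adjusted p = 0.53, limma). Pparg, the regulator of fat cell formation, had levels of 0.54, 0.47 and 1.49 on DECB arrays and 1.44, 0.65 and 0.58 on control arrays. In both groups the array on slide 1 was the high one, and the difference was -0.055 (SE 0.41). The within-array ratio of Ppara to Ppard averaged 2.59 ± 0.35 with DECB and 5.07 ± 0.41 in controls (log2, SD, n = 3 each), a difference of -2.48 without overlap. The ratio of Ppara to Pparg differed by -1.60 and that of Ppard to Pparg by 0.88, also without overlap. Over the 42 ratios of 2 receptors of a class, 13 did not overlap between groups. Each of these had a two-sided exact permutation p of 0.1, the smallest that 3 arrays against 3 allow, and an adjusted p of 0.323. The ratios share receptors and are not independent, and most of the 13 hold a receptor that itself did not overlap. The share over pairs of all genes was not computed, so the count is description only.

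**Figure D2:**
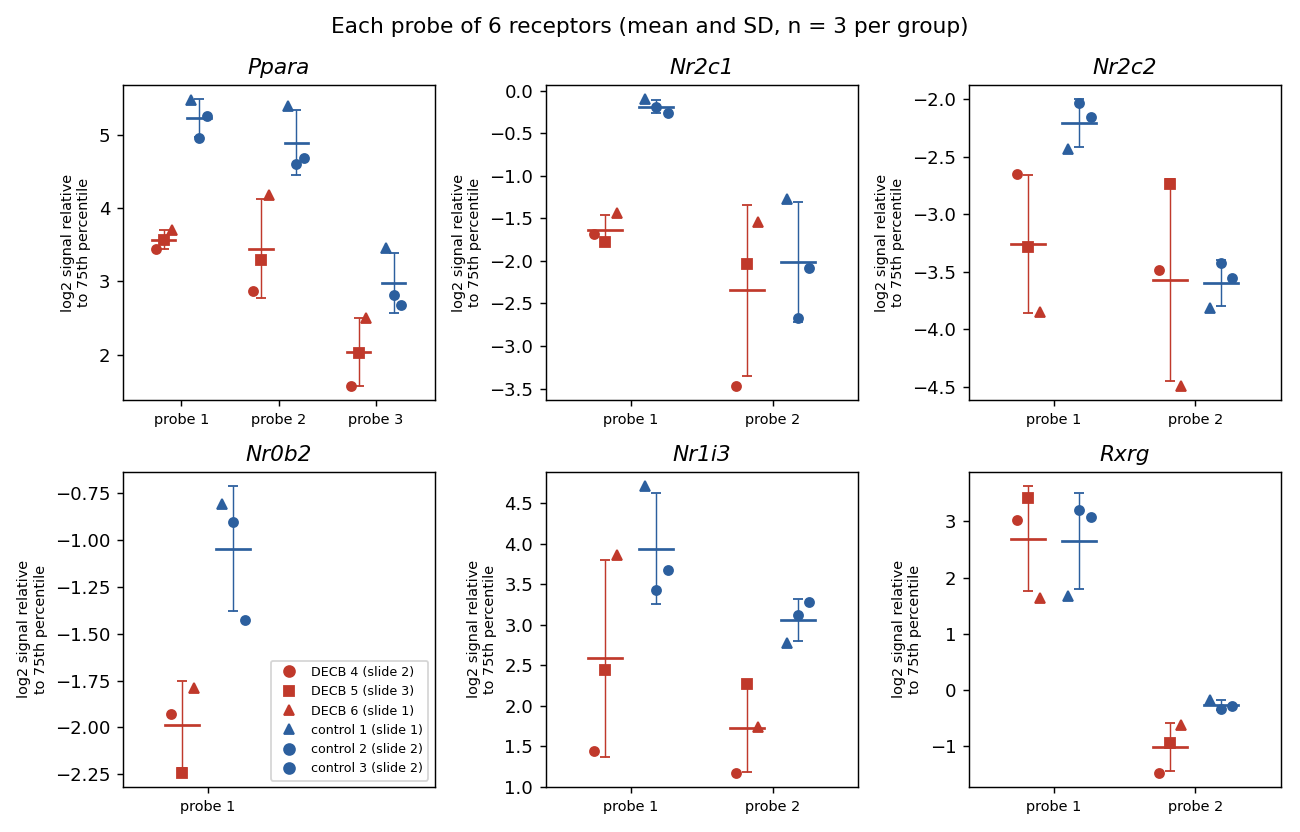
Level on each array of every kept probe of 6 receptors (log2 relative to the 75th percentile), DECB in red left of control in blue, with a symbol for each slide and lines for the mean and SD (n = 3 each). All 3 Ppara probes are lower with DECB, while the second probe of Nr2c1 and of Nr2c2 overlaps between the groups.

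The retinoid X receptors are the shared partners of many other receptors. Rxra, the main form in liver, had levels of 0.60, 0.72 and 0.38 on DECB arrays and 0.67, 0.53 and 0.40 on control arrays. These ranges lie over each other, and the difference was 0.032 (SE 0.27, 95% interval -0.59 to 0.66). Rxrb had levels of 1.83, 1.75 and 3.08 on DECB arrays and 3.57, 2.48 and 2.45 on control arrays. Each slide 1 array was the high one of its group, and the difference was -0.61 (SE 0.49, adjusted p = 0.84, limma). The 2 probes of Rxrg, a form known mainly from muscle and brain, differed. Its brighter probe had levels of 3.02, 3.42 and 1.64 on DECB arrays and 1.68, 3.20 and 3.09 on control arrays, so that the low arrays were both on slide 1, and differed by 0.039 (SE 0.60). The dimmer Rxrg probe had levels of -1.46, -0.95 and -0.61 on DECB arrays and -0.17, -0.34 and -0.28 on control arrays, lower on every DECB array by -0.74 (SE 0.31), which did not pass over all probes (adjusted p = 0.58, limma). Which of the Rxrg probes follows the transcript was not tested.

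The retinoic acid receptors bind all-trans retinoic acid. Rara had levels of 1.93, 2.36 and 3.06 on DECB arrays and 2.74, 2.18 and 2.02 on control arrays, a difference of 0.14 (SE 0.39). Rarb, itself a retinoic acid-induced gene, had levels of -1.12, -0.71 and 0.28 on DECB arrays and -0.038, -0.83 and -0.93 on control arrays, a difference of 0.085 (SE 0.45). Rarg had levels of -0.65, -0.59 and 0.32 on DECB arrays and 0.36, -0.32 and -0.31 on control arrays, a difference of -0.22 (SE 0.38). For all 3 the slide 1 array was the highest of its group and the groups overlapped.

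Of the hormone receptors for thyroid hormone, Thrb is the main form in hepatocytes. Thrb had levels of 0.87, 0.55 and 1.33 on DECB arrays and 1.48, 1.11 and 0.88 on control arrays, a difference of -0.24 (SE 0.33). Thra had levels of 1.09, 1.89 and 2.09 on DECB arrays and 2.41, 1.90 and 2.26 on control arrays, a difference of -0.49 (SE 0.36, adjusted p = 0.796, limma). DECB 4 was the lowest array for Thra, and the other DECB arrays lay close to or among the controls. Vdr, the vitamin D receptor, was not well above background on any of the 6 arrays and was not tested. Its processed signal was between 3.26 and 7.35.

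Among the sterol and bile acid receptors, the receptors themselves overlapped between groups and the repressor that bile acids induce was lower. Nr1h3, the oxysterol receptor LXR-alpha, had levels of 4.99, 5.19 and 5.57 on DECB arrays and 5.52, 5.02 and 4.99 on control arrays, a difference of 0.075 (SE 0.31). Nr1h2, its broadly expressed relative LXR-beta, had levels of 3.37, 3.16 and 4.13 on DECB arrays and 4.23, 3.50 and 3.24 on control arrays, a difference of -0.10 (SE 0.40). Nr1h4, the bile acid receptor FXR, had levels of 3.42, 3.72 and 4.5 on DECB arrays and 4.54, 4.13 and 4.17 on control arrays. DECB 4 and 5 were lowest and DECB 6 lay among the controls, with a difference of -0.40 (SE 0.36, adjusted p = 0.873, limma). Nr0b2 encodes SHP, which lacks a DNA-binding domain and represses other receptors. Nr0b2 had levels of -1.93, -2.24 and -1.79 on DECB arrays and -0.80, -0.90 and -1.43 on control arrays. The groups did not overlap, and the difference was -0.94 (SE 0.30), or 1.92-fold lower, with an unadjusted p of 0.0173 in limma's test that did not pass (adjusted p = 0.336, or 0.0895 in the slide block fit). It was -0.98 within slide 1 and -0.76 within slide 2.

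The xenobiotic receptors sense drugs and other foreign compounds and induce the enzymes that clear them. Nr1i3, the receptor CAR, had levels of 1.44, 2.44 and 3.86 on DECB arrays and 4.71, 3.42 and 3.68 on control arrays by its brighter probe. DECB 6 on slide 1 lay above 2 of the controls, so the groups overlapped, and the difference was -1.35 (SE 0.65, adjusted p = 0.582, limma). It was -0.85 on slide 1, -2.11 on slide 2 and -1.57 in the slide block fit (adjusted p = 0.0613). Without DECB 4 it was -0.78, and without DECB 6 it was -1.99. The second Nr1i3 probe had levels of 1.18, 2.27 and 1.73 on DECB arrays and 2.77, 3.12 and 3.28 on control arrays, lower on every DECB array by -1.33 (SE 0.36), which did not pass over all probes (adjusted p = 0.285, limma). Nr1i2, the receptor PXR, had levels of 0.24, 1.0 and 1.76 on DECB arrays and 1.73, 1.17 and 1.81 on control arrays. Its difference was -0.57 (SE 0.44), and it was 0.029 within slide 1 and -1.25 within slide 2.

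**Figure D3:**
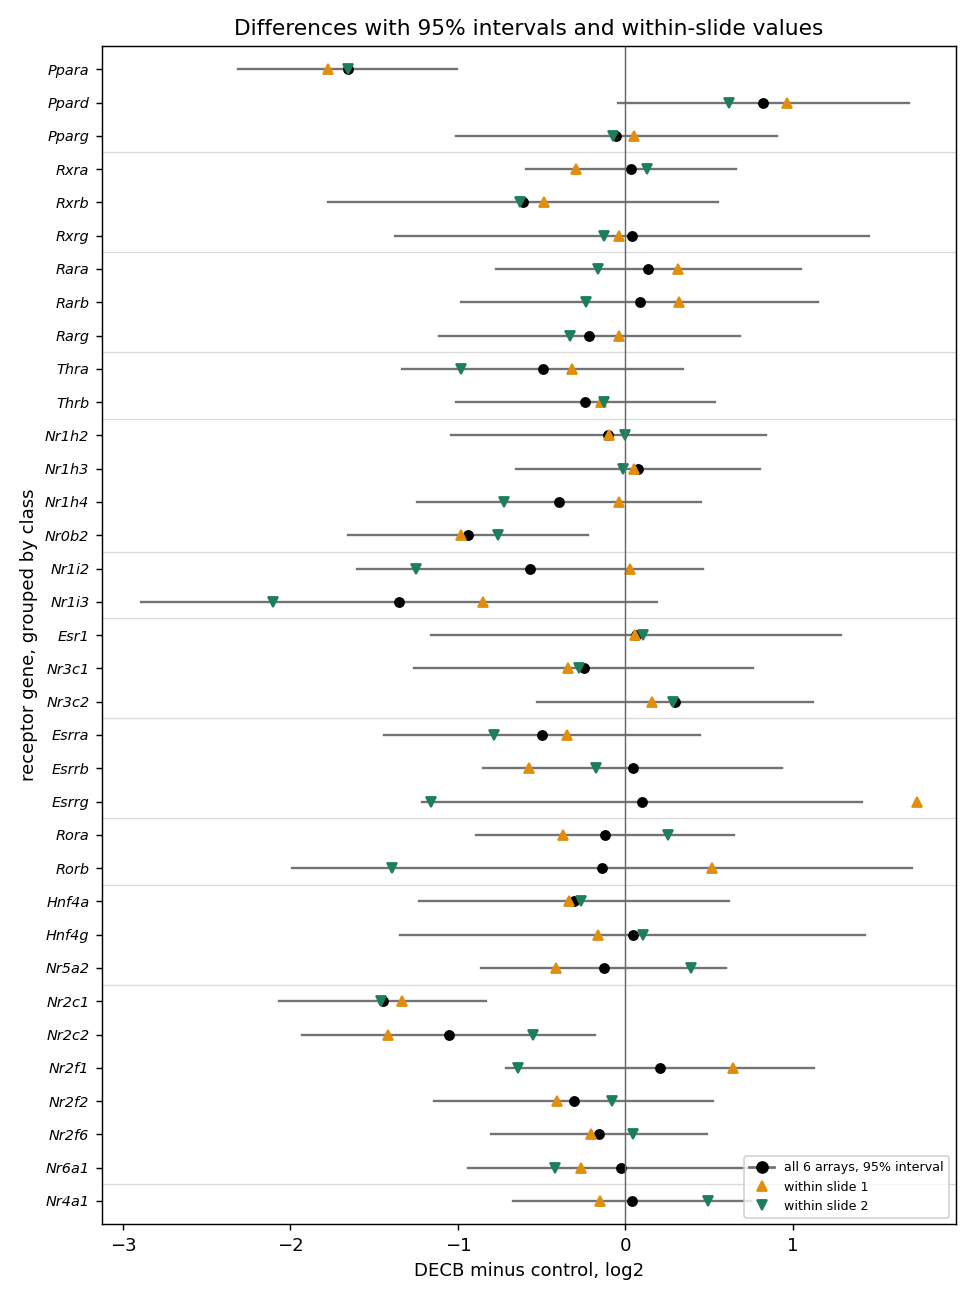
Difference of each tested receptor, DECB minus control (log2), as a black point with its 95% interval, and the differences within slide 1 and within slide 2 as triangles. The interval lies wholly below 0 for Ppara, Nr2c1, Nr0b2 and Nr2c2. The slides lie on opposite sides of 0 for some receptors, such as Esrrg and Rorb, neither of them well above background on slide 1.

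Steroid hormone receptors showed no difference beyond their spread. Nr3c1, the glucocorticoid receptor, had levels of 3.0, 3.15 and 3.93 on DECB arrays and 4.28, 3.0 and 3.56 on control arrays, a difference of -0.25 (SE 0.43, 95% interval -1.26 to 0.76). Esr1, the oestrogen receptor alpha of hepatocytes, had levels of 0.87, 0.79 and 2.11 on DECB arrays and 2.05, 0.90 and 0.64 on control arrays, a difference of 0.064 (SE 0.52). The 2 high Esr1 values were those of slide 1, 1 in each group. Nr3c2, the mineralocorticoid receptor, was well above background on 4 arrays and differed by 0.30 (SE 0.35). Pgr, the progesterone receptor, was well above background on DECB 4 alone and was not tested.

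Of the oestrogen-related receptors, which act on energy metabolism without a known hormone, Esrra had levels of 3.03, 3.46 and 4.20 on DECB arrays and 4.55, 3.88 and 3.76 on control arrays. DECB 4 and 5 lay below all controls and DECB 6 among them, a difference of -0.50 (SE 0.40, adjusted p = 0.838, limma). Esrrb, known from stem cells, differed by 0.043 (SE 0.38) and was well above background on 5 arrays. Esrrg was well above background on only 3 arrays, none of them on slide 1. Its difference of 0.10 (SE 0.56) was 1.74 within slide 1, between 2 dim signals, and -1.16 within slide 2. Rora, a receptor tied to clock and lipid genes, had levels of 2.45, 1.95 and 1.53 on DECB arrays and 1.90, 2.23 and 2.17 on control arrays, a difference of -0.12 (SE 0.33). Rorb, its neural relative, was well above background on 4 arrays, none of them on slide 1, and differed by -0.14 (SE 0.78).

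The receptors of hepatocyte identity also overlapped. Hnf4a, a master regulator of hepatocyte genes, had levels of 6.43, 6.37 and 7.19 on DECB arrays and 7.53, 6.92 and 6.47 on control arrays. The difference was -0.31 (SE 0.39, 95% interval -1.23 to 0.62). Nr5a2, the receptor LRH-1 that acts on bile acid synthesis genes, had levels of 1.64, 0.88 and 1.08 on DECB arrays and 1.5, 1.33 and 1.16 on control arrays, a difference of -0.13 (SE 0.31). Hnf4g, a relative of Hnf4a, was well above background on 4 arrays, none of them on slide 1, and differed by 0.042 (SE 0.59).

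The testicular receptors TR2 and TR4 act together as repressors, among them of embryonic globin genes in red cell precursors. Nr2c1, which encodes TR2, had levels of -1.69, -1.78 and -1.44 on DECB arrays and -0.10, -0.19 and -0.26 on control arrays. The arrays of each group lay close together and far from the other group. The means were -1.63 ± 0.18 with DECB and -0.19 ± 0.081 in controls (SD, n = 3 each), a difference of -1.45 (SE 0.26, 95% interval -2.07 to -0.83), or 2.73-fold lower, which did not pass (adjusted p = 0.083, limma). It was -1.34 within slide 1 and -1.46 within slide 2 and passed with slide as a block (adjusted p = 0.0236). The second Nr2c1 probe overlapped, with levels of -3.47, -2.03 and -1.54 on DECB arrays and -1.27, -2.68 and -2.09 on control arrays, a difference of -0.34 (SE 0.59), and the mean over both probes was -0.89. Summed erythroid markers, given above, were also lower with DECB without overlap. Of the markers tested, the globin gene Hbb-bt differed by -2.29 and Alas2, the erythroid heme enzyme, by 0.88, in the opposite direction, and their part in this result was not tested.

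Nr2c2, which encodes TR4, had levels of -2.65, -3.29 and -3.85 on DECB arrays and -2.43, -2.03 and -2.16 on control arrays. The groups did not overlap, but it was well above background on only 2 arrays of each group, neither slide 1 array among them. The difference of -1.06 (SE 0.37) had an unadjusted p of 0.0244 in limma's test and did not pass (adjusted p = 0.387), and the second Nr2c2 probe differed by 0.024 (SE 0.47). Of the COUP factors, Nr2f2 (COUP-TFII), expressed in venous endothelium as well as liver cells, differed by -0.31 (SE 0.35). Nr2f6 differed by -0.16 (SE 0.27), and Nr2f1 (COUP-TFI), with levels of -1.69, -0.43 and -0.58 on DECB arrays and -1.22, -1.09 and -1.01 on control arrays, by 0.21 (SE 0.39). Nr6a1, the germ cell nuclear factor, was well above background on 3 arrays and differed by -0.025 (SE 0.39).

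The NR4A receptors are immediate early genes that act without a classical ligand. Nr4a1 had levels of -0.27, -0.99 and -0.79 on DECB arrays and -0.64, -0.64 and -0.89 on control arrays, a difference of 0.038 (SE 0.30). Nr4a2 was well above background on 2 arrays by either of its probes and Nr4a3 on none, so neither was tested. Across the family, 28 receptors were well above background on all 6 arrays, 1 on 5, 4 on 4, 2 on 3 and 4 on fewer than 3.

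Slide separated the receptors as it separated other genes. For 20 of 35 receptors, or 57.1%, DECB 6 and control 1 both lay outside the range of the other 4 arrays, 15 above and 5 below, against 56.7% of all genes. Rxrg, Rorb and Hnf4g were low on slide 1, by -1.52, -1.70 and -1.49 against the other arrays, and Nr1i3, Esr1 and Rxrb were high, by 1.54, 1.28 and 1.20. Ppara and Nr2c1 differed by 0.28 and 0.21 between slide 1 and the other arrays, less than they differed between groups. The median difference over the receptors was -0.16 within slide 1 and -0.24 within slide 2.

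**Figure D4:**
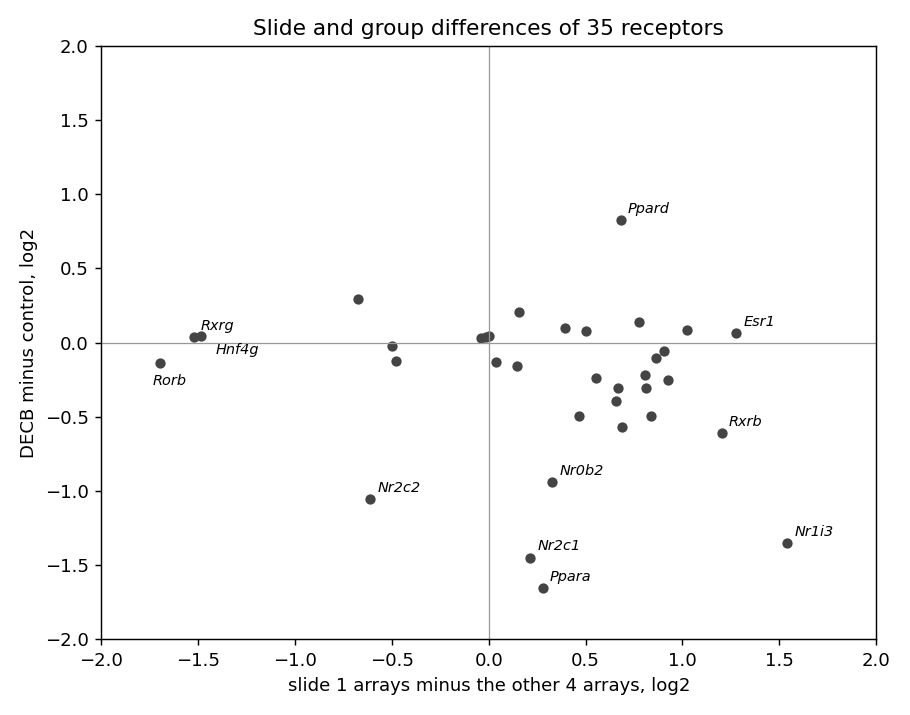
Each tested receptor by its difference between groups (DECB minus control, log2, vertical axis) and by the difference between the slide 1 arrays and the other 4 arrays (log2, horizontal axis). Ppara, at 0.28 across and -1.66 down, and Nr2c1, at 0.21 and -1.45, lie low and near the middle, whereas Rxrg and Rorb lie far to the left near 0.

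The receptors work through shared coregulators, and none of these passed either. Of 15 coactivators none passed. Ppargc1b and Ppargc1a, the PGC-1 proteins that boost fat oxidation, had the smallest p. Ppargc1a had levels of -0.53, 0.57 and 0.58 on DECB arrays and 1.75, 1.64 and 1.52 on control arrays, a difference of -1.43 (SE 0.37, adjusted p = 0.204, limma). Ppargc1b differed by -2.37 (SE 0.58, adjusted p = 0.175, limma). Both were lower on every DECB array and both passed with slide as a block, where 3.92% of all genes passed as lower. The median over the coactivators was -0.22. Of 9 tested corepressors none passed, with a median of -0.20. Hdac3, the deacetylase of the NCoR complex, differed by -0.70 (adjusted p = 0.478, limma) and Tbl1xr1, another subunit, by -0.59. Of 11 enzymes that make or clear receptor ligands none passed, with a median of -0.059 that was 0.056 under quantile normalization. Dio1, which converts thyroid hormone in liver, differed by 0.86 (adjusted p = 0.37, limma) and Akr1d1, a bile acid and steroid reductase, by -0.73.

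Of 25 tested target genes of Ppara, 2 passed, Pdk4 and Fgf21, both lower with DECB, against 0.257% of all genes, and all 25 differences lay below 0, with a median of -1.58 beside -0.027 over all genes. At an unadjusted p under 0.05 there were 21 of them, against 5.79% of all genes, and 18 passed with slide as a block, against 3.92%. The groups did not overlap for 22, all lower, against 9.40% of all genes. The targets were chosen with earlier results of these data known, so these shares do not test the list. Fgf21, which is in each of these counts, was kept for testing through the 3 control arrays alone. All 25 also lay below 0 with normexp (median -1.49) and with quantile normalization (median -1.54). The median of the 25 targets, each set to its own mean over the 6 arrays, was -1.07, -1.17 and -0.27 on DECB arrays and 1.21, 0.52 and 0.73 on control arrays. The slide 1 array was the highest of each group, and the groups did not overlap. Pdk4, the kinase that shuts pyruvate out of the mitochondrial citric acid cycle, had levels of -0.91, -0.98 and -0.27 on DECB arrays and 3.16, 2.66 and 3.31 on control arrays, and differed by -3.77 (SE 0.34), lower at an adjusted p of 0.0252 in limma's test. Fgf21, a fasting hormone of the liver, was not well above background on any DECB array. It had levels of 1.92, 1.03 and 1.14 on control arrays, at least 39.6-fold lower with DECB. That bound sets the control mean against the higher of the dim probe's own signal and the lowest signal well above background on each DECB array. The adjusted p of Fgf21, 0.0252 in limma's test, rests on DECB signals not well above background and is not read as support.

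Of 16 tested targets of CAR and PXR, 1 passed as lower, Gadd45b, against 0.257% of all genes. With slide as a block 8 passed, all lower, against 3.92%. Of the 16, 15 lay below 0, against 52.5% of all genes, with a median of -1.13 beside -0.027 over all genes. Among the 8, 1 gene was not well above background on any DECB array. That gene was kept for testing through the 3 control arrays alone, so its place in these counts is not read as support. Gadd45b, a stress and growth gene, had levels of 0.14, -0.45 and -0.29 on DECB arrays and 3.01, 2.76 and 2.10 on control arrays, a difference of -2.83 (SE 0.35) that passed at an adjusted p of 0.0352 in limma's test. Por, the reductase that feeds electrons to microsomal cytochromes P450, had levels of 5.37, 5.99 and 5.71 on DECB arrays and 7.28, 7.71 and 7.44 on control arrays. Por was lower on every DECB array, by -1.78 (SE 0.30, adjusted p = 0.068, limma).

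Each list of sterol and bile acid targets had 1 lower call, beside 0.257% of all genes. With slide as a block 3 genes each of the LXR, FXR, HNF4A and glucocorticoid receptor lists passed as lower, and 1 LXR target as higher. Over all genes 3.92% passed as lower and 2.73% as higher in that fit. Of 11 LXR targets Abcg5 passed, a subunit of the transporter that exports sterols into bile, with levels of 0.71, 0.89 and 1.3 on DECB arrays and 3.63, 3.36 and 3.26 on control arrays. The Abcg5 difference was -2.45 (SE 0.29) with an adjusted p of 0.0343 in limma's test, and the list's median was -0.47. Of 8 FXR targets Cyp8b1 passed, the sterol hydroxylase of cholic acid synthesis, with levels of -0.78, -1.45 and -0.42 on DECB arrays and 1.94, 1.28 and 1.67 on control arrays. That of Cyp8b1 was -2.51 (SE 0.37) with an adjusted p of 0.0491 in limma's test, and that list's median was -0.49. Cyp8b1 was also the only call among 13 HNF4A targets (median -0.54), where Pklr, liver pyruvate kinase, differed by -1.88 (adjusted p = 0.215, limma). Pltp, a phospholipid transfer protein on both the LXR and FXR lists, differed by -1.38 (adjusted p = 0.12, limma). The lists share these genes and are not independent. They also do not record whether a receptor raises or lowers a gene, so a list's median or count of lower genes has no direction for its receptor.

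Of 15 glucocorticoid receptor targets 2 passed, both lower, against 0.257% of all genes. They were Igfbp1, which binds insulin-like growth factors, and G6pc, the last enzyme of glucose output, both also regulated by insulin. Igfbp1 had levels of 3.84, 1.38 and 2.48 on DECB arrays and 7.5, 6.89 and 6.56 on control arrays, a difference of -4.42 (SE 0.62) with an adjusted p of 0.0474 in limma's test. G6pc differed by -2.93 (SE 0.42) with an adjusted p of 0.0491 in limma's test. The median of the glucocorticoid receptor list was -0.42, beside -0.027 over all genes. Some targets of the retinoic acid and thyroid hormone receptors were higher, though none passed. Of 8 retinoic acid receptor targets, Cyp26a1, the retinoic acid hydroxylase, differed by 1.98 (SE 0.47, adjusted p = 0.155, limma) and Tgm2, transglutaminase 2, by 1.56 (adjusted p = 0.197, limma). Both were without overlap and both passed as higher with slide as a block, while 1 of the list passed as lower. Over all genes 2.73% passed as higher and 3.92% as lower in that fit. The list's median was -0.33. Of 7 thyroid hormone receptor targets, Serpina7, a carrier of thyroid hormone, differed by 2.69 (SE 0.49, adjusted p = 0.0844, limma) and Thrsp, a lipogenic gene, by 1.5 (adjusted p = 0.1), both higher on every DECB array, with a list median of 0.081. With slide as a block 3 of this list passed as higher, these and Dio1, and 1 as lower, against 2.73% and 3.92% of all genes. The LXR target Srebf1, a lipogenic factor named after its values were seen, was also higher on every DECB array, by 1.74 (SE 0.46, adjusted p = 0.206 in limma's test, or 0.0323 in the slide block fit). Members of every gene list above were chosen with earlier results of these data known, and no difference between the lists was tested.

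**Figure D5:**
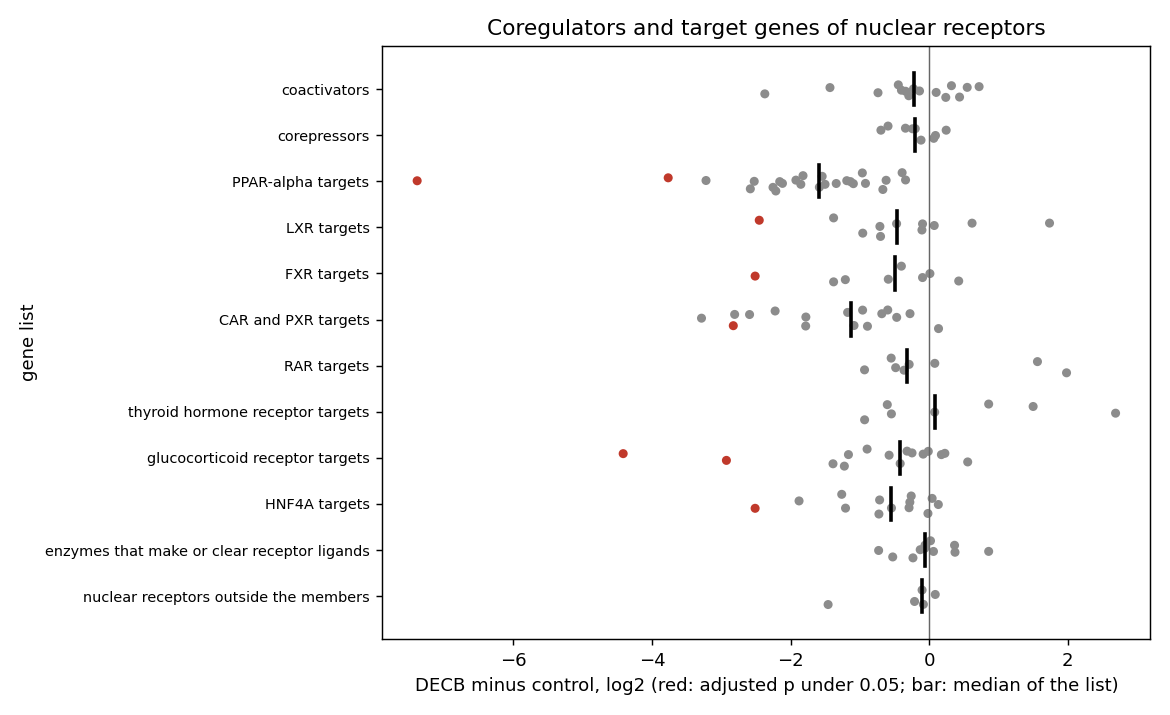
Differences of the tested genes of each list (DECB minus control, log2), 1 point a gene, with red for genes past an adjusted p of 0.05 and a bar at the list's median; the Fgf21 point at the far left rests on DECB signals not well above background. The Ppara targets all lie below 0 around a median of -1.58 and the CAR and PXR targets around -1.13, while the coactivators and corepressors lie around -0.22 and -0.20.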

How the data were processed

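Liver RNA was measured on 6 Agilent 1-colour arrays, 3 DECB and 3 control, grouped by the sample titles. Per the file headers, the deposited intensity values are Agilent Feature Extraction 11.0.1.1 scanner output, and the processed signal used had its background subtracted and was detrended, with no normalization between arrays. The series' value table holds log2 values as deposited by the authors, with scale known only as log2-like and its centring and direction unknown. Its columns had medians of 5.35. Across probes it correlated with its own scans at 0.672 to 0.694, but deviations of each array from the probe mean correlated at -0.034 to 0.044, so it was not used.

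The processed signal was put on a log2 scale and the 75th percentile over the array's 43020 non-control spots was subtracted. Outlier spots (164 to 322 an array) were left out, spots of a probe were averaged, and no spot was saturated. Probes well above background on at least 3 arrays were kept (25423 of 39429), and the brightest stood for its gene. RefSeq accessions named 27234 probes, and 12195 stayed unnamed. Tests used limma 3.58.1 in R 4.3.3 (lmFit, eBayes, two-sided, Benjamini-Hochberg) and were tested on simulated data. The number of arrays limits the precision. The block fit used the 14749 genes with 6 values, and DECB 5, alone on slide 3, adds nothing to it.

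All receptors are named; of each other list, members past the threshold and the 2 with the smallest p are named, apart from a gene that is not reported here. The receptors, lists and tests were chosen with earlier results of these data known. Alternatives were normexp with an offset of 50, quantile normalization, other filters, slide as a block, left-out arrays and the mean over probes. Normexp was planned on each spot's mean signal and was run on its median signal instead, a change from the plan. Protein sequences were not analysed here.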

Additional observations from a re-analysis of the deposited data

How the results depend on the processing

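No paired analysis was possible because the titles share no replicate number between the groups. Slide, which the groups share on slides 1 and 2, was fitted as a block instead. The calls were the most changeable results: against 31 genes higher and 38 lower, quantile normalization gave 15 and 22, no filter on dim probes 0 and 0 (1257 at an unadjusted p under 0.05 in limma), averaging controls 2 and 3 as if 1 sample 0 and 2, and slide as a block 403 and 578, while leaving out 1 array gave 0 to 18 higher and 0 to 35 lower. Receptors called lower numbered 2, Ppara and Nr2c1, with slide as a block and with probes well above background on all 6 arrays, and 0 in the other tested settings. Ppara ranged from -1.79 to -1.35 and Nr2c1 from -1.55 to -0.89 over all settings. Small differences changed sign, and the cause was not tested. With normexp these were Rarb -0.0035, Esrrg -0.058, Nr6a1 0.044 and Nr4a1 -0.0073, and with quantile normalization Esrrb -0.021 and Nr6a1 0.017. With slide as a block they were Rxra -0.051, Rxrg -0.089, Esrrb -0.35, Hnf4g -0.011, Nr5a2 0.046 and Nr2f1 -0.089. Without slide 1 they were Rarb -0.033, Esrrg -0.72, Rora 0.0010, Nr5a2 0.014, Nr2f1 -0.012 and Nr6a1 0.10. With controls 2 and 3 averaged they were Rxra -0.0023, Rarb -0.056, Nr1h3 -0.011, Esr1 -0.15, Esrrb -0.034, Rorb 0.22 and Nr6a1 0.029, and with the mean over probes Rxra -0.13, Rxrg -0.35 and Nr5a2 0.0068. Within slide 1 they were Pparg 0.051, Rxra -0.29, Rxrg -0.038, Nr1i2 0.029, Esrrb -0.57, Rorb 0.52, Hnf4g -0.16 and Nr4a1 -0.15. Within slide 2 they were Rxrg -0.13, Rara -0.17, Rarb -0.24, Nr1h2 0.00053, Nr1h3 -0.014, Esrrb -0.18, Esrrg -1.16, Rora 0.25, Nr5a2 0.39, Nr2f1 -0.64 and Nr2f6 0.046. Leaving out 1 array at a time gave both signs for 19 receptors: Pparg -0.38 to 0.22, Rxra -0.048 to 0.13, Rxrg -0.45 to 0.57, Rara -0.17 to 0.39, Rarb -0.31 to 0.39, Rarg -0.53 to 0.0092, Nr1h2 -0.39 to 0.19, Nr1h3 -0.086 to 0.25, Esr1 -0.36 to 0.49, Nr3c1 -0.55 to 0.083, Esrrb -0.30 to 0.23, Esrrg -0.44 to 0.59, Rora -0.36 to 0.10, Rorb -0.87 to 0.26, Hnf4g -0.40 to 0.59, Nr5a2 -0.35 to 0.030, Nr2f1 -0.026 to 0.60, Nr6a1 -0.40 to 0.20 and Nr4a1 -0.17 to 0.19. Signal over background limits the slide 1 arrays, where the 75th percentile was 4.04 times local background on DECB 6 and 3.75 times on control 1, against 25.0 to 30.6 on the others.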

Other observations

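Among 9 other nuclear receptors outside the list, 5 were tested and none passed. At an unadjusted p under 0.05 in limma there was 1, lower, against 5.79% of all genes in that direction. Nr1d2, the clock repressor REV-ERB-beta, had levels of -1.01, -2.52 and -1.60 on DECB arrays and 0.47, -0.64 and -0.59 on control arrays. It was lower on every DECB array, as were 9.40% of all genes, by -1.46 (SE 0.49, adjusted p = 0.367, limma). The Nr1d2 difference was -2.07 within slide 1 and -0.40 within slide 2, with an adjusted p of 0.16 in limma's slide block fit.

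A probe of Pgr had a processed signal of 450 on DECB 4 against 3.47 and 5.02 on DECB 5 and 6 and 4.63 to 8.45 on control arrays. The other Pgr probe had a signal of 6.51 on DECB 4 and was not well above background on any array. The reading rests on 1 probe of 1 array, and Pgr was not tested.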
